A study of Neurospora crassa with 10 samples.

Results

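The change in transcript levels between 60 and 120 min of light was measured in mycelium of *Neurospora crassa*, a filamentous fungus. The comparison takes 4 of the 10 RNA-seq samples of a light time course. These are the 2 samples labelled light 120 min and the 2 samples labelled light 60 min, set against each other within replicate. All cultures were the wild-type strain FGSC2489, shaken in liquid medium at 25°. They spent 24 hr without light, and the lit ones then received white light of 1200 lux for the stated time. The dark, 15 min, and 240 min samples, 2 each, belong to the same series. Both time points compared here were thus lit. The dark samples give the level before light, enter the estimate of the spread, and serve to group genes by their response at 15 min. Replicate 1 had its polyadenylated RNA isolated on oligo(dT) cellulose and replicate 2 with a magnetic bead kit, so that every ratio was taken within 1 isolation method, and the replicates were separate cultures. Such a culture is a mass of submerged hyphae, and the comparison describes that growth form only.

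In *N. crassa*, light is sensed by the White Collar Complex (WCC), a photoreceptor and transcription factor made of the proteins WC-1 and WC-2. Blue light activates the complex, and it turns on genes for carotenoid pigments, DNA photorepair, conidiation, the circadian clock, and further transcription factors. Under continued light the transcripts of many of these genes pass a maximum and decline, which is called photoadaptation, and the small photoreceptor VIVID (VVD) binds the WCC and takes part in it.

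FPKM, a measure of transcript abundance that is corrected for transcript length and for the number of mapped fragments, were listed for 9728 genes, and 778 to 915 of them were listed at 0 in each of the 4 samples. The files keep no read numbers, so the depth behind a value is not known from them. The error given here comes from the spread between samples that is left once the difference between the replicates is taken out. The FPKM of all genes summed to 705219 and 720285 in the 120 min samples (replicate 1, then replicate 2, here and below), against 944127 and 1009370 in the 60 min samples. The sums at the other time points, between 559990 and 739137, were also lower than at 60 min. *gpd-1*, the glycolytic enzyme gene used as the mark of mycelium, had 21907 and 18719.9 FPKM at 120 min, against 22398 and 18768 at 60 min. As deposited it was not called, but it was called higher at 120 min with quantile normalization (0.51 on the log2 scale) and with FPKM rescaled to a common sum (0.44).

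Genes with a mean FPKM above 1 at 1 or more of the 5 time points were tested, which left 7688. The test was limma on log2(FPKM + 1), blocked by replicate number, in a fit that also held the dark and 15 min samples to estimate the spread. A fold change on this scale understates the change of genes with low FPKM, and the error given with it is the standard error (SE) from the fit over 2 samples per time point.

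At an adjusted p of 0.05 or less, 2400 genes (31.2%) differed between 120 and 60 min. Of these 1123 (14.6% of those tested) were higher at 120 min and 1277 (16.6%) were lower. All 2400 moved the same way in both replicates, but the test itself favors such genes. Over all 7688 genes tested, 78.5% moved the same way in both. Most of these changes were small, with a median size of 0.55 on the log2 scale among the called genes. As deposited, large changes ran mainly downward. In both replicates, 118 genes (1.53%) were at least 2-fold lower at 120 min and 19 (0.247%) at least 2-fold higher, and 2 genes changed 2-fold in opposite directions. This split turned with the scale. With FPKM rescaled to the same sum in every sample, 187 genes were 2-fold higher in both replicates and 35 lower. With quantile normalization 23 were higher and 57 lower. Across the 7688 genes the log2 ratio of replicate 1 correlated with that of replicate 2 at r = 0.768, where genes are not independent replicates.

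**Figure D1:**
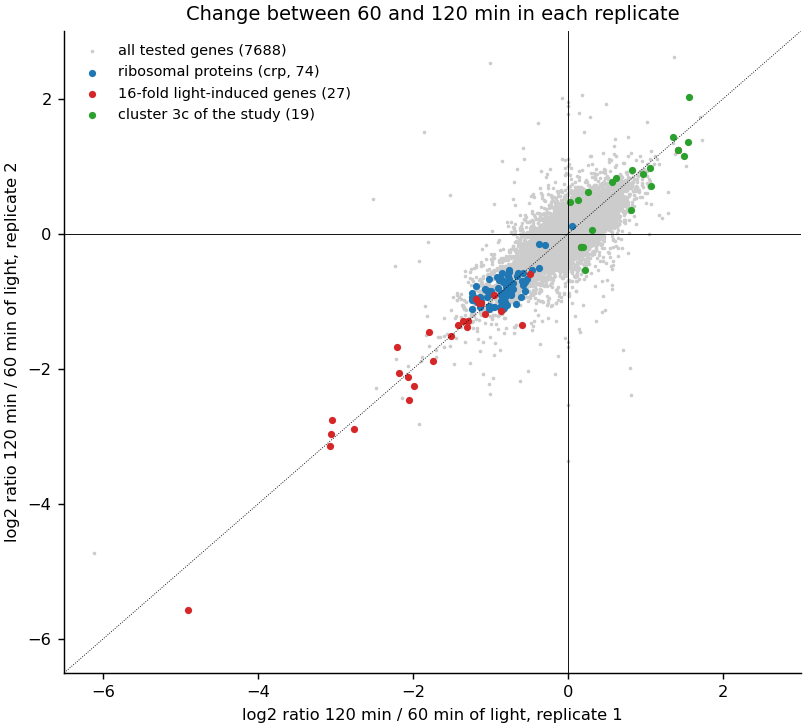
Log2 ratio of FPKM + 1 at 120 min to 60 min of light in replicate 1 (x axis) and replicate 2 (y axis) for 7688 genes, one point each, with a dotted line of equal change. Genes induced 16-fold or more by light (red, 27) reach from -5.24 to 1.33 in fitted log2 fold change, ribosomal protein genes (blue, 74) gather near their median of -0.84, and cluster 3c (green, 19) lies mostly above 0.

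The number of calls rested on the block and on the samples that share the spread. Without the block limma called 14 genes (785 at an unadjusted p of 0.05 or less), and with all 10 samples and the block it called 0 (913 unadjusted). Leaving out single samples at 60 or 120 min gave between 649 genes (without replicate 2 at 120 min) and 1626 genes (without replicate 2 at 60 min). The split by direction rested on the scale. When FPKM were rescaled to the same sum in every sample, an alternative chosen after the data were seen, the median log2 fold change of all genes moved to 0.39, against 0.02 as deposited. Then 3482 genes were called higher and 403 lower, and under quantile normalization 959 and 836. The common sum rests heavily on few genes. The 100 genes with the highest FPKM held 55.5% and 57.3% of it at 120 min, and 56.8% and 60.2% at 60 min. Their part in the move of the median was not tested. Directions below are on the deposited scale and were taken against 0, close to the deposited median of 0.02. Where the common sum turned a list's median or moved its counts by more than 1.5 times, both values are given. The counts of each list are to be read beside the 16.6% of all genes that were lower and the 14.6% that were higher, or with a common sum beside 403 lower and 3482 higher of 7688.

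The largest falls of the interval were in light-induced genes. A list of genes with an increase of 16-fold or more in light was taken from the study, and since it was chosen on these samples, the behavior of its genes here is not independent evidence. It holds 27 genes. At 120 min 23 of the 27 were lower than at 60 min and 1 was higher, with a median log2 fold change of -1.38, and 20 of the falls were at least 2-fold in both replicates. With FPKM rescaled to a common sum 23 were lower and 2 higher, and leaving out any 1 of the 60 and 120 min samples left 23 lower. In 24 of the 27, both 120 min samples were below both 60 min samples, which held for 19.9% of all genes tested.

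NCU08770, an uncharacterized gene, had 18.4 and 10.7 FPKM at 120 min, against 582 and 554 FPKM at 60 min. The fold change was -5.24 ± 0.25 on the log2 scale (SE, limma adjusted p = 0.00018), and the 120 min samples were still above the dark samples (2.46 and 1.62 FPKM). NCU06915, also uncharacterized and not among the 27, had 0.240 and 1.38 FPKM at 120 min, against 85.2 and 62.3 FPKM at 60 min (-5.43 ± 0.31, limma adjusted p = 0.00034). Its dark samples were at 0.0975 and 0 FPKM, so that after 120 min of light this transcript was again at the bottom of the measured range.

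NCU02190, annotated as an oxysterol binding protein, had 10.3 and 8.43 FPKM at 120 min and 94.2 and 81.8 FPKM at 60 min (-3.10 ± 0.12, limma adjusted p = 0.00012). The gene *bli-4*, named for its induction by blue light, had 65.8 and 64.04 FPKM at 120 min and 555 and 508 FPKM at 60 min (-3.01 ± 0.08, limma adjusted p = 2.1e-05). A second gene of this kind, *bli-3*, had 651 and 433 FPKM at 120 min and 2578 and 2062 FPKM at 60 min (-2.12 ± 0.13). For each of these 3 genes the 2 samples of a time point lay close together and far from those of the other.

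The 10 largest falls were ranked among called genes with a mean FPKM above 10 at the higher of the 2 time points. The remaining genes among them were *con-10* and *al-1*, described below, and 4 genes known by locus number. NCU05594, annotated as an L-galactose dehydrogenase, had 31.2 and 42.1 FPKM at 120 min and 179 and 208 at 60 min, and its dark samples had 29.97 and 35.2 FPKM. By 120 min it was thus close to its dark level. NCU00999 (-2.29 on the log2 scale), the dehydrogenase/reductase NCU07434 (-2.26), and NCU06597 (-2.12) also fell more than 4-fold in both replicates. NCU06597 was the most abundant of these, with 954 and 849.9 FPKM at 120 min, against 4316 and 3553 at 60 min.

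**Figure D2:**
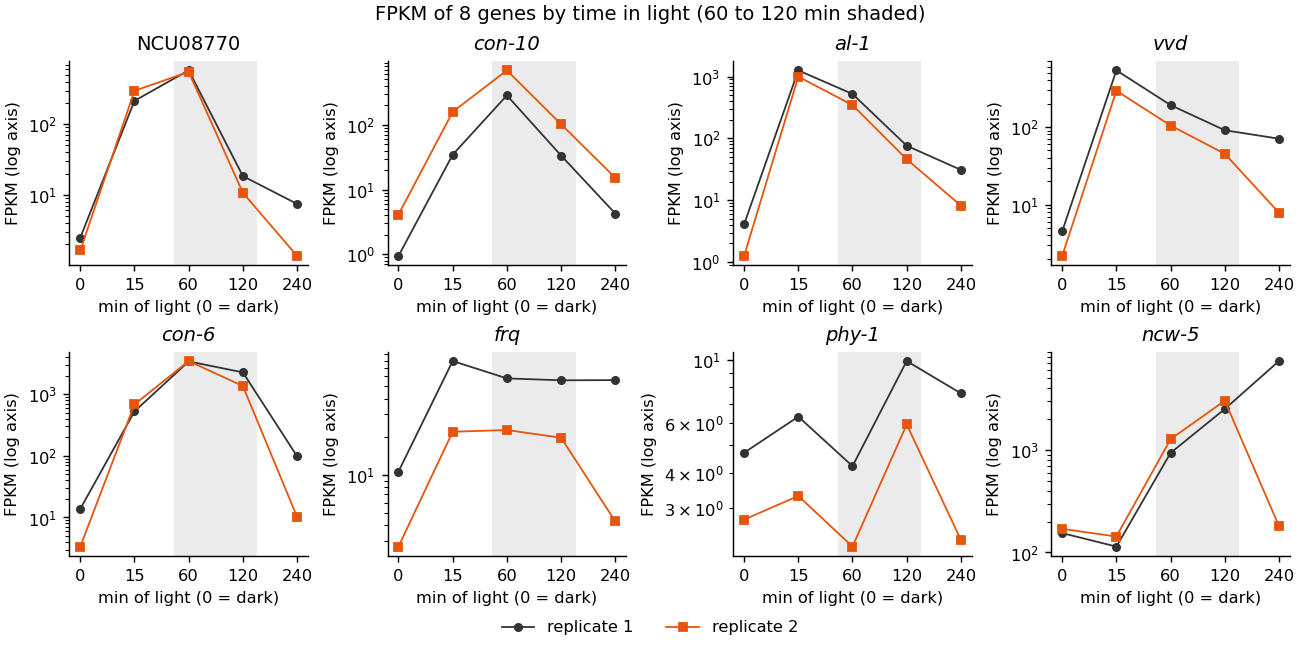
FPKM (log axis) of 8 genes in the dark and after 15, 60, 120, and 240 min of light (evenly spaced on the x axis), replicate 1 in black circles and replicate 2 in orange squares, with the interval from 60 to 120 min shaded. NCU08770, *con-10*, *al-1*, and *vvd* fall in both replicates over the shaded interval, *frq* has a fitted log2 fold change of -0.12, and *phy-1* and *ncw-5* rise.

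The share of the light-induced excess that remained was computed per replicate as the FPKM above dark at 120 min over the FPKM above dark at 60 min. Over the 27 genes the median share was 34.1% in replicate 1 and 35.4% in replicate 2. Less than 50% was left in both replicates for 21 of them, and more than 100% for 1, *ncw-5*. The share ranged from 2.75% and 1.64% in NCU08770 to 301% and 259% in *ncw-5*. All 27 were still at least 2-fold above dark in both replicates at 120 min, so the decline over this hour was partial. With FPKM rescaled to a common sum the median share was 48.2%.

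**Figure D3:**
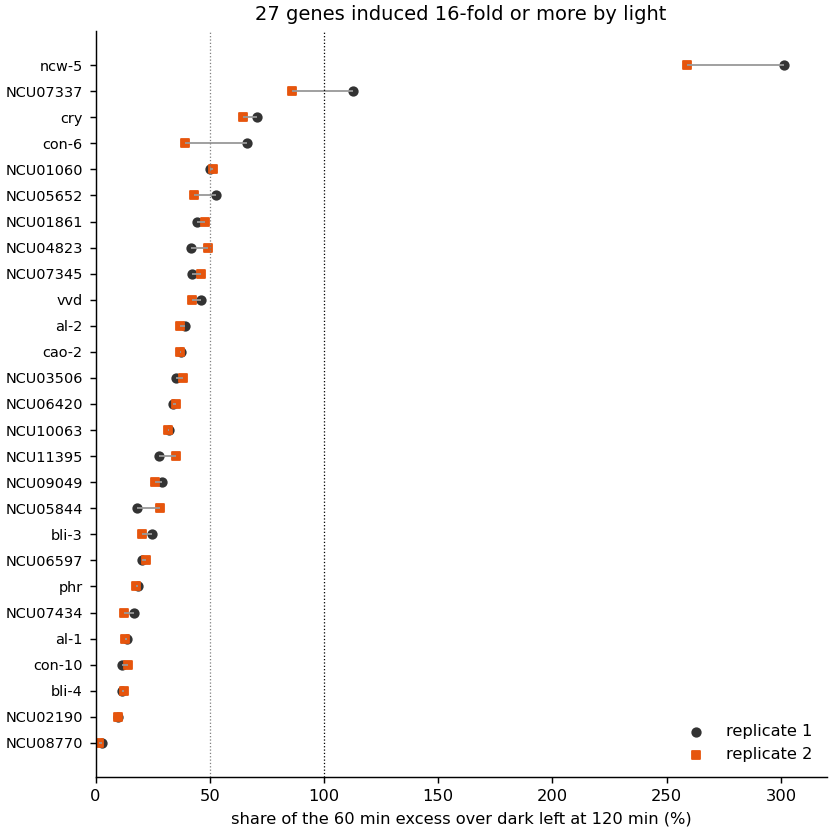
Share of the 60 min excess over the dark FPKM that was left at 120 min (x axis, percent) for the 27 genes induced 16-fold or more by light, replicate 1 in black circles and replicate 2 in orange squares, joined by a line, with dotted lines at 50% and 100%. The 2 replicates differ little for most genes, 21 genes lie below 50% in both, and *ncw-5* alone lies above 100% in both.

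Of the 8 genes tested from the list of photoreceptors and photolyase, 2 fell and 2 rose, beside 16.6% lower and 14.6% higher among all genes. In a list this short these counts do not set it apart from all genes. The median log2 fold change was -0.27 (0.14 with a common sum, where 3 rose). The falls were *vvd* and the photolyase gene *phr*, and the rises were *phy-1* and *wc-2*. *vvd*, whose product restrains the WCC in light, had 90.7 and 45.1 FPKM at 120 min, against 191 and 104 at 60 min (-1.13 ± 0.08, limma adjusted p = 0.0006). The 120 min samples were both below the 60 min samples, with 46.1% and 42.02% of the excess over dark left. *phr*, the photolyase gene that repairs ultraviolet damage with light, fell further, with 26.9 and 13.9 FPKM at 120 min and 116 and 63.6 FPKM at 60 min (-2.09 ± 0.09, limma adjusted p = 0.00014).

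*cry*, a cryptochrome of the DASH type, had 69.8 and 30.8 FPKM at 120 min and 98.2 and 47.3 at 60 min, and its change did not pass the threshold (-0.54 ± 0.17, limma adjusted p = 0.052). *wc-1*, the photoreceptor subunit of the WCC, had 14.4 and 4.22 FPKM at 120 min and 14.7 and 5.48 at 60 min (-0.17 ± 0.12, limma adjusted p = 0.3). The replicates of *wc-1* differed by much more than its change, a difference that the block takes out of the SE, and the samples of the 2 time points overlapped. *wc-2*, its partner subunit, had 10 and 8.30 FPKM at 120 min, against 7.38 and 6.10 at 60 min, which was a call (0.39 ± 0.11, limma adjusted p = 0.032). That call was lost when any 1 of the samples at 15, 60, or 120 min was left out, with an adjusted p of up to 0.197 by the same test.

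*phy-1*, one of the phytochrome genes of the fungus, rose the most of this list. It had 9.89 and 5.91 FPKM at 120 min, against 4.21 and 2.19 at 60 min (1.09 ± 0.10, limma adjusted p = 0.00097). Both 120 min samples were above both 60 min samples, and above the dark samples, which had 4.70 and 2.73 FPKM. *nop-1*, an opsin gene, had 7.67 and 5.93 FPKM at 120 min and 10.1 and 7.93 at 60 min (-0.36, limma adjusted p = 0.058), and NCU01735 had 74.6 and 54.2 FPKM at 120 min and 76.8 and 46.7 at 60 min (0.08, not called). *phy-2* did not pass the filter on low values, with at most 0.396 FPKM in the 4 samples.

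All 5 carotenoid genes fell (median log2 fold change -1.34). *al-1*, the phytoene desaturase gene, had 76.1 and 46 FPKM at 120 min, against 523 and 346 FPKM at 60 min (-2.82 ± 0.18, limma adjusted p = 0.00041). *al-2*, the phytoene synthase and carotene cyclase gene, had 305 and 161 FPKM at 120 min and 753 and 418 FPKM at 60 min (-1.34 ± 0.08, limma adjusted p = 0.00034). *al-3*, the geranylgeranyl pyrophosphate synthase gene, had 8.003 and 8.61 FPKM at 120 min and 24.6 and 26.6 FPKM at 60 min (-1.51 ± 0.10, limma adjusted p = 0.00051). In each of these 3 genes the 120 min samples were below the 60 min samples, and *al-1* kept 13.9% and 12.98% of its excess over dark, the lowest share among the 4 genes of the list that were 2-fold above dark at 60 min.

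*cao-2*, a carotenoid oxygenase gene, had 108 and 68.8 FPKM at 120 min and 266 and 169 FPKM at 60 min (-1.29 ± 0.09). *ylo-1*, an aldehyde dehydrogenase gene that acts late in the synthesis of neurosporaxanthin, had 25.9 and 18.6 FPKM at 120 min and 39.7 and 28.2 at 60 min (-0.59 ± 0.11, limma adjusted p = 0.0087). In both replicates the 120 min level of *ylo-1* was below dark (34.99 and 19.3 FPKM). Its call was lost without replicate 2 at 60 min or without either sample at 120 min (adjusted p up to 0.0766 by the same test).

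Among 10 transcription factor genes known for an early light response, 4 fell and 1 rose, beside 16.6% lower and 14.6% higher among all genes. Their median log2 fold change was -0.03. With a common sum 1 fell and 3 rose (median 0.18), and without replicate 2 at 120 min 1 fell and 1 rose. *vos-1*, a gene of the velvet family of developmental regulators, had 9.80 and 8.29 FPKM at 120 min, against 24.01 and 19.95 FPKM at 60 min (-1.19 ± 0.09, limma adjusted p = 0.00069). It was the only one of the 10 that fell at least 2-fold in both replicates. *csp-1*, a repressor that takes part in the timing of metabolism, had 44.7 and 33.8 FPKM at 120 min and 62.4 and 49.3 at 60 min (-0.50 ± 0.08, limma adjusted p = 0.0051). Its 15 min samples had 389.7 and 330.4 FPKM and its dark samples 46.4 and 35.4, so that the 120 min level was slightly below dark in both replicates.

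*sub-1*, a regulator of sexual development, had 8.05 and 7.08 FPKM at 120 min and 12.4 and 10.64 at 60 min (-0.54 ± 0.09, limma adjusted p = 0.0062). *sah-1*, a zinc finger gene, had 34.7 and 30.9 FPKM at 120 min and 53.1 and 42.5 at 60 min (-0.53 ± 0.09, limma adjusted p = 0.007). The calls of *csp-1* and *sub-1* were lost without replicate 2 at 120 min, and that of *sah-1* without either 120 min sample, with adjusted p up to 0.0676 by the same test. *hsf-2*, a gene of the heat shock factor type, was higher, with 6.54 and 4.81 FPKM at 120 min and 3.66 and 2.60 at 60 min (0.69 ± 0.09, limma adjusted p = 0.003).

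The other 5 did not pass the threshold. *sre*, *fl*, *adv-1*, and *csp-2* had log2 fold changes between -0.07 and 0.10. NCU01346 was listed at 0 in all 4 samples. A longer list of transcription factor genes, taken from the study as WCC targets, holds 27 genes tested. Of these, 8 fell and 4 rose (median -0.07), and with a common sum 2 fell and 12 rose (median 0.36). Without replicate 2 at 120 min 3 fell and 2 rose, and without replicate 1 at 120 min 5 and 2. Outside the genes above, the largest fall of this list was in *abc-4*, which RefSeq annotates as an ABC multidrug transporter (-0.89 ± 0.27), with 0.578 and 0.437 FPKM at 120 min and 2.77 and 1.06 at 60 min, a call that was lost without any 1 of these 4 samples (adjusted p up to 0.262 by limma). The carbon catabolite repressor gene *cre-1* had 26.6 and 18.4 FPKM at 120 min and 44.3 and 36.2 at 60 min (-0.83 ± 0.12, limma adjusted p = 0.0036). NCU07846 rose, with 12.1 and 14.4 FPKM at 120 min and 5.59 and 7.24 at 60 min (0.95 ± 0.08, limma adjusted p = 0.00097).

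The core clock gene *frq* was not called, with 55.8 and 19.6 FPKM at 120 min and 57.8 and 22.6 at 60 min (-0.12 ± 0.12, limma adjusted p = 0.49). Of its excess over dark, 95.8% and 85.1% were left at 120 min, beside a median of 34.1% and 35.4% in the 16-fold genes. An antisense transcript of *frq* is known, and since the use of strand in counting is not given in the sources used here, the 2 cannot be told apart. *frh*, the helicase gene that partners FRQ, was higher, with 8.42 and 6.61 FPKM at 120 min and 5.64 and 4.05 at 60 min (0.55 ± 0.10, limma adjusted p = 0.0073, but 0.0796 without replicate 2 at 120 min). The kinase gene *ck-1a* and the F-box gene *fwd-1*, which act on FRQ protein, had log2 fold changes of 0.05 and 0.07 and passed no threshold.

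Among clock-controlled genes, *ccg-9*, a trehalose synthase gene, had 154 and 90.7 FPKM at 120 min, against 85.2 and 57.9 at 60 min (0.74 ± 0.09, limma adjusted p = 0.002). *ccg-14* had 6615 and 4771 FPKM at 120 min and 4457 and 2810.2 FPKM at 60 min (0.67 ± 0.13, limma adjusted p = 0.012), a call lost without any 1 of the 4 samples (up to 0.115). *ccg-1*, among the most abundant transcripts of the culture, had 21059 and 16639.8 FPKM at 120 min and 22070.2 and 19299 FPKM at 60 min (-0.14, not called). Of the 9 genes of the clock list 3 rose and 0 fell (median 0.07, -0.01 with median scaling), beside 14.6% higher and 16.6% lower among all genes. The rises numbered 1 without replicate 2 at 120 min, and 6 with a common sum (median 0.50).

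Of 7 genes of conidiation, the making of asexual spores on aerial hyphae, 2 fell and 1 rose (median -0.27). With a common sum 1 fell and 2 rose (median 0.18), and with quantile normalization 1 fell and 1 rose (median 0.06). *con-10* had 33.5 and 102 FPKM at 120 min, against 284 and 691 FPKM at 60 min (-2.90 ± 0.20, limma adjusted p = 0.00051). *con-6* had 2262 and 1358 FPKM at 120 min and 3408 and 3456 FPKM at 60 min, and with its replicates apart it did not pass the threshold (-0.97 ± 0.45, limma adjusted p = 0.14). In both genes all 120 min samples were below all 60 min samples. *con-8* had 408 and 493 FPKM at 120 min and 492 and 680.5 FPKM at 60 min (-0.37 ± 0.11, limma adjusted p = 0.041), a call that was lost without any 1 of these 4 samples or without replicate 1 at 15 min (up to 0.274).

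*eas*, the gene of the hydrophobin that coats spores, had 198 and 194 FPKM at 120 min and 232 and 243 at 60 min (-0.27, not called), and *con-13* had at most 0.290 FPKM and did not pass the filter. The 4 of 5 conidial markers that passed the filter (*con-6*, *con-8*, *con-10*, and *eas*) summed to 2902 and 2148 FPKM at 120 min, against 4416 and 5070.3 FPKM at 60 min, and their part in other results was not tested. Most of this sum was *con-6*, which was not called. *con-6* and *con-10* are also among the genes induced 16-fold or more by light, so the sum need not follow the number of conidial cells. In bulk RNA, fewer cells of a type and less RNA per cell cannot be told apart. *acon-3*, an early conidiation regulator, had only 1.10 and 0.759 FPKM at 120 min and 0.335 and 0.237 at 60 min (0.58 ± 0.14, limma adjusted p = 0.019). Of the mating genes, *ccg-4*, a pheromone precursor gene, had 188 and 477 FPKM at 120 min and 330.4 and 622 at 60 min (-0.60 ± 0.12, limma adjusted p = 0.012), and *poi-2* and the mating type gene had no call. Of these 3 genes 1 thus fell and 0 rose (median -0.14), but with a common sum 0 fell and 1 rose (median 0.09). With quantile normalization 0 fell and 0 rose. The calls of *acon-3* and *ccg-4* were lost without at least 3 of the 4 samples in turn (up to 0.105).

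Genes were also grouped by their response at 15 min. The fold change at 15 min uses neither the 60 nor the 120 min samples, but its test shares the estimate of the spread with them, so genes of low spread are favored in both tests and the groups are not an independent selection. In 229 genes (2.98%) the level was raised at 15 min over dark, at an adjusted p of 0.05 or less by limma and 2-fold in both replicates. Of these, 142 (62.0%) were lower at 120 than at 60 min and 8 were higher, beside 16.6% and 14.6% of all genes. Their median log2 fold change was -0.59. By mean FPKM over dark, 15, 60, and 120 min, 119 of the 229 had their maximum at 15 min and 101 at 60 min, while 9 had it at 120 min. At least 2-fold above dark in both replicates were 117 at 120 min and 167 at 60 min.

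The 142 falls of 229 became 89 of 229 without replicate 2 at 120 min and 73 of 195 with FPKM rescaled to a common sum, which also changes the group. The 8 genes raised at 15 min that were higher at 120 than at 60 min included NCU08606, annotated as a cell cycle inhibitor (0.59 ± 0.10), NCU08319, annotated as the developmental regulator flbA (0.56 ± 0.10), and the glycosyltransferase gene *gt1-2* (0.54 ± 0.11). These 3 were chosen after their values were seen, and samples were not left out for them singly. Another 88 genes (1.14%) were lowered at 15 min. In this group 35 (39.8%) were lower at 120 than at 60 min and 10 (11.4%) were higher, beside 16.6% and 14.6% of all genes. Their median log2 fold change was -0.18, and values with other scalings or samples left out are not given for this group. NCU00757, one of the largest rises, belonged to it, with 22.8 and 40.2 FPKM at 120 min, 8.36 and 15.2 at 60 min, and 2.56 and 4.95 at 15 min.

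The light-regulated clusters that the study drew from these samples differed in this interval, and being drawn from them they give no independent evidence. In cluster 1 (13 genes) 11 fell, with a median log2 fold change of -1.81, and in cluster 2 (48 genes) 35 fell and 2 rose (median -0.65), with a common sum 20 and 5 (median -0.23). Cluster 4 (24 genes) had 20 falls and 0 rises (median -1.19). In cluster 3a (167 genes) 75 fell and 18 rose (median -0.30), but with a common sum 21 fell and 53 rose (median 0.13), and in cluster 3b (35 genes) 24 fell and 1 rose (median -0.61), with a common sum 13 and 5 (median -0.16). Cluster 3c went the other way, with 13 of 19 higher and 0 lower (median 0.72). In cluster 5, genes that light lowers, 58 of 222 fell and 48 rose (median 0.08), but with a common sum 20 fell and 96 rose (median 0.41). Without replicate 2 at 120 min the falls numbered 30 in both cluster 3a and cluster 5, 24 in cluster 2, and 14 in cluster 3b.

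Rises of at least 2-fold in both replicates were seen in 19 genes, and in 187 with a common sum. The 10 largest rises were ranked with the same filter of a mean above 10 FPKM as the falls. Among them, NCU01011, an uncharacterized member of cluster 3c, had 18.6 and 34.6 FPKM at 120 min, against 5.63 and 7.72 at 60 min (1.80 ± 0.31, limma adjusted p = 0.0066). Its call was lost without replicate 1 at 60 min (0.0570 by the same test). *ncw-5*, a gene of a cell wall protein that is not anchored, was the most abundant of them, with 2507 and 3023 FPKM at 120 min, against 935 and 1272 FPKM at 60 min (1.33 ± 0.10, limma adjusted p = 0.0007). Its 120 min samples were both more than 2-fold above their 60 min partners. *gh47-5*, annotated as a mannosidase, had 40.2 and 23.2 FPKM at 120 min and 15.2 and 7.91 at 60 min (1.39 ± 0.11). *lacc*, a laccase gene, had 29.5 and 19.1 FPKM at 120 min and 9.77 and 8.04 at 60 min (1.33 ± 0.12).

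A second group of rises was in genes that were lower at 60 min than in the dark. NCU00829, annotated as a ferric reductase, had 19.2 and 19.5 FPKM at 120 min, against 5.21 and 5.18 at 60 min (1.72 ± 0.10, limma adjusted p = 0.00034), with 11.1 and 11.02 in the dark. Its neighbor on the chromosome, *trm-44*, annotated as a copper transporter of the ctr family, had 23.2 and 17.9 FPKM at 120 min, against 6.31 and 6.22 at 60 min (1.56 ± 0.12, limma adjusted p = 0.0007), with 14.98 and 13.2 in the dark. In both genes the 120 min samples were above the dark and the 60 min samples below it. NCU09903, annotated as an elongation factor, had 18.1 and 12.3 FPKM at 120 min and 6.36 and 4.83 at 60 min (1.28 ± 0.14), and its 60 min samples were below dark (18.5 and 9.64).

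NCU09496, a zinc finger transcription factor gene, had 48.5 and 29.3 FPKM at 120 min and 21.8 and 12.6 at 60 min (1.14 ± 0.08, limma adjusted p = 0.00059). NCU05138, the last of the 10, had 9.24 and 17.2 FPKM at 120 min and 4.98 and 5.74 at 60 min (1.10 ± 0.29, limma adjusted p = 0.03). Its call was lost without replicate 2 at 15 or 60 min or without either 120 min sample (up to 0.148). Over the 16 cell wall genes of the *ncw* and *acw* families, 4 rose and 3 fell (median -0.11). With a common sum 9 rose and 1 fell (median 0.34), with quantile normalization 8 rose and 0 fell (median 0.26), and without replicate 2 at 120 min 1 rose and 0 fell. *acw-8* had 2198 and 2285 FPKM at 120 min and 1363 and 1396 FPKM at 60 min (0.70 ± 0.11), and *ncw-4* had 486 and 866 FPKM at 120 min and 1006 and 1476 FPKM at 60 min (-0.91 ± 0.15). Both of these calls were lost without replicate 2 at 120 min (up to 0.0648 by limma).

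A uniform change was seen in the genes of cytoplasmic ribosomal proteins (*crp*). Of 74, 68 fell and 0 rose, with a median log2 fold change of -0.84 (-0.83 in replicate 1 and -0.84 in replicate 2). In 73 of 74 the ratio was below 1 in both replicates, and 5 fell 2-fold in both. Summed, they took up 18.2% and 23.8% of all FPKM at 120 min, against 23.8% and 30.6% at 60 min and 23.2% and 34.7% in the dark. In FPKM their sums were 132113 and 253001 in the dark, 224655 and 308915 at 60 min, and 128392 and 171396 at 120 min. The fall thus followed a rise over dark by 60 min, when the sum of all genes was also highest. At 120 min the *crp* sums were below dark in both replicates. *crp-15* had 612 and 1022 FPKM at 120 min, against 1243 and 2206 FPKM at 60 min (-1.07 ± 0.10, limma adjusted p = 0.0012). *crp-10* had 912 and 1164 FPKM at 120 min and 1773 and 2457 FPKM at 60 min (-1.02 ± 0.11), and *crp-49* had 616 and 1285 FPKM at 120 min and 1455 and 2363 FPKM at 60 min (-1.06 ± 0.14). In 59 of 74 both 120 min samples were below both 60 min samples, beside 19.9% of all genes.

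High FPKM moved with this result. Among genes with a mean above 512 FPKM that are not *crp* genes (147), 52.4% fell and 4.76% rose, with a median log2 fold change of -0.51. From 2 to 8 FPKM (2391 genes) 7.11% fell and 17.6% rose (median 0.13). The part of this relation in the fall of the *crp* genes was not tested. Rescaled to a common sum, 50 *crp* genes fell and 1 rose (median -0.38, beside 0.39 over all genes), and with quantile normalization, which sets the same distribution in every sample, 11 fell and 1 rose (median -0.20). The count also hung on single samples. It was 54 without replicate 2 at 60 min, 17 without replicate 1 at 60 min, 29 without replicate 1 at 120 min, and 7 without replicate 2 at 120 min, while the median stayed between -0.95 and -0.71.

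**Figure D4:**
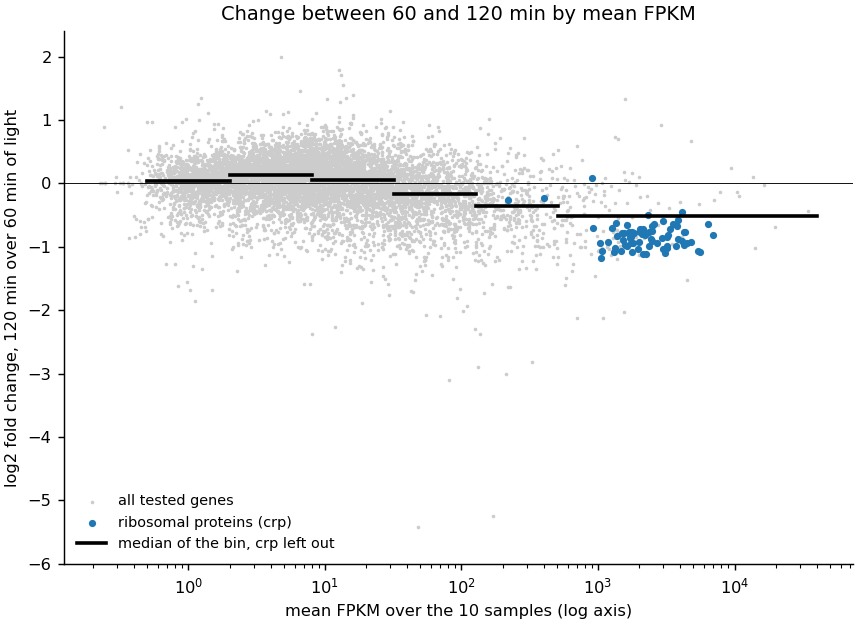
Log2 fold change of 120 min over 60 min of light (y axis) against the mean FPKM over the 10 samples (x axis, log axis) for 7688 genes, with the 74 *crp* genes in blue and the median of other genes in 6 FPKM bins as black bars. The bars run from 0.13 between 2 and 8 FPKM to -0.51 above 512 FPKM, and most *crp* genes lie below the last bar.

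Of 14 genes of ribosome biogenesis (*rbg*), which act in making ribosomes, 1 rose and 1 fell (median 0.11), but with a common sum 7 rose and 0 fell (median 0.49). In a longer list of 33 *rbg* genes, partly chosen on their light response in these samples, 4 rose and 2 fell (median 0.21), with a common sum 17 and 0. *rbg-42*, annotated as exportin-1, had 29.7 and 15.6 FPKM at 120 min and 18.1 and 10.2 at 60 min (0.63 ± 0.09, limma adjusted p = 0.0041). *rbg-19*, a subunit gene of the H/ACA complex, had 9.61 and 19.7 FPKM at 120 min and 15.3 and 26 at 60 min (-0.50 ± 0.09, limma adjusted p = 0.009, up to 0.0786 without replicate 1 at 60 min or either 120 min sample). Of 12 RNA polymerase (*rpo*) genes 4 rose and 0 fell (median 0.19), with a common sum 12 and 0 (median 0.58), and without replicate 2 at 120 min 0 rose. Of 5 RNA helicase (*drh*) genes 3 rose and 0 fell, with 1 rise without replicate 2 at 120 min. *rpo-1* had 18.2 and 9.92 FPKM at 120 min and 10.61 and 6.47 at 60 min (0.64 ± 0.10), and the call was lost without replicate 2 at 120 min (0.0526 by limma). *drh-9* had 188 and 126 FPKM at 120 min and 99.8 and 69.03 at 60 min (0.88 ± 0.09, limma adjusted p = 0.0014).

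Respiratory chain genes (*nuo* subunits of complex I and *cox* subunits of cytochrome oxidase) fell as well. Of 33, 23 fell and 0 rose, with a median log2 fold change of -0.49, and 32 were lower in both replicates. Here too the fall followed a rise over dark. The 33 genes summed to 6064 and 8091 FPKM in the dark, 9747 and 10118 at 60 min, and 6422 and 7251 at 120 min. Falls were also frequent among abundant genes outside the *crp* list. From 128 to 512 FPKM (370 genes) 47.8% fell and 6.22% rose (median -0.35). The part of this relation in the fall of the respiratory genes was not tested. *cox-4* had 132 and 356 FPKM at 120 min, against 303 and 614 at 60 min (-0.99 ± 0.12, limma adjusted p = 0.0023), and *nuo51* had 103 and 68.99 FPKM at 120 min, against 153 and 97.6 at 60 min (-0.53 ± 0.08, limma adjusted p = 0.0039). With FPKM rescaled to a common sum 4 fell and 1 rose (median -0.04, below the 0.39 of all genes), and with quantile normalization 4 fell. Without replicate 2 at 120 min 5 fell, without replicate 1 at 120 min 7, and without replicate 1 at 60 min 10 (with 1 rise).

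Of 10 genes tied to oxidative stress, 6 fell and 0 rose (median -0.42, 0.01 with a common sum). *sod-1*, the gene of the copper and zinc superoxide dismutase, had 224 and 354 FPKM at 120 min, against 720.0 and 1017 FPKM at 60 min (-1.60 ± 0.10, limma adjusted p = 0.00041). Its 120 min samples were below dark (587 and 968 FPKM) as well. The catalase gene *cat-1* had 287 and 163 FPKM at 120 min and 493 and 302 at 60 min (-0.84 ± 0.08), and *cat-3* had 9.90 and 8.70 FPKM at 120 min and 18.3 and 15.7 at 60 min (-0.80 ± 0.08). *cat-2* (-0.31 ± 0.08, up to 0.146 by limma when 1 sample at 15, 60, or 120 min was left out) turned to 0.12 with FPKM rescaled to a common sum.

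NCU03112, annotated as a cytochrome b5 reductase, fell by 0.59 on the log2 scale, and NCU00678, a glutamate decarboxylase gene, by 0.53. The call of NCU03112 was lost without either 120 min sample (up to 0.0746) and that of NCU00678 without any 1 of the 4 (up to 0.157). *sod-2*, *nox-1*, *nox-2*, and NCU05706 lay between -0.27 and 0.14 and were not called. With FPKM rescaled to a common sum 3 of the 10 fell and 2 rose, and without either 120 min sample 3 fell.

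Of 14 heat shock protein genes 4 rose and 3 fell (median 0.10), beside 14.6% and 16.6% of all genes. With a common sum 11 rose and 0 fell (median 0.53), with quantile normalization 6 rose and 1 fell, and without either 120 min sample 1 rose and 1 fell. *hsp30* had 9.82 and 8.44 FPKM at 120 min and 6.03 and 4.91 at 60 min (0.65 ± 0.09, limma adjusted p = 0.0034). *hsp70-3* had 106 and 86.7 FPKM at 120 min and 158 and 129 at 60 min (-0.56 ± 0.07), and *hsp70-2* had 438 and 252 FPKM at 120 min and 664 and 367 at 60 min (-0.57 ± 0.09), a call that was lost without either 120 min sample (up to 0.0622 by limma). Of 32 DNA repair genes 3 fell and 3 rose (median 0.10), with a common sum 1 and 12 (median 0.40), and apart from *phr* none changed 2-fold in both replicates. *mip-1*, a DNA polymerase gene and the 1 of 4 DNA replication genes called, had 3.09 and 1.92 FPKM at 120 min and 6.34 and 4.72 at 60 min (-0.91 ± 0.10).

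Of 6 genes of gluconeogenesis, the glyoxylate cycle, and fatty acid synthesis 2 fell and 0 rose (median -0.25), with a common sum 1 and 1 (median 0.12). *acu-6*, the phosphoenolpyruvate carboxykinase gene of gluconeogenesis, fell further below dark, with 10.59 and 8.996 FPKM at 120 min, 23.8 and 20.5 at 60 min (-1.10 ± 0.09, limma adjusted p = 0.00076), and 113 and 91.1 in the dark. *acu-3*, the isocitrate lyase gene of the glyoxylate cycle, had 22.5 and 36.8 FPKM at 120 min and 38.8 and 51.7 at 60 min (-0.62 ± 0.10). The fatty acid synthase genes *cel-1* and *cel-2* had log2 fold changes of -0.29 and -0.21 and were not called, and *acu-5* and *acu-9* were not called either. Of 13 ergosterol genes 2 fell and 1 rose (median -0.17). With a common sum 2 fell and 6 rose (median 0.28), and with quantile normalization 2 fell and 3 rose (median 0.04). *erg-1* had 145 and 159 FPKM at 120 min and 371 and 345 at 60 min (-1.23 ± 0.14, limma adjusted p = 0.0021), and *erg-13*, which makes hydroxymethylglutaryl-CoA, had 42.96 and 30.9 FPKM at 120 min and 83.9 and 66.8 at 60 min (-1.02 ± 0.08).

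**Figure D5:**
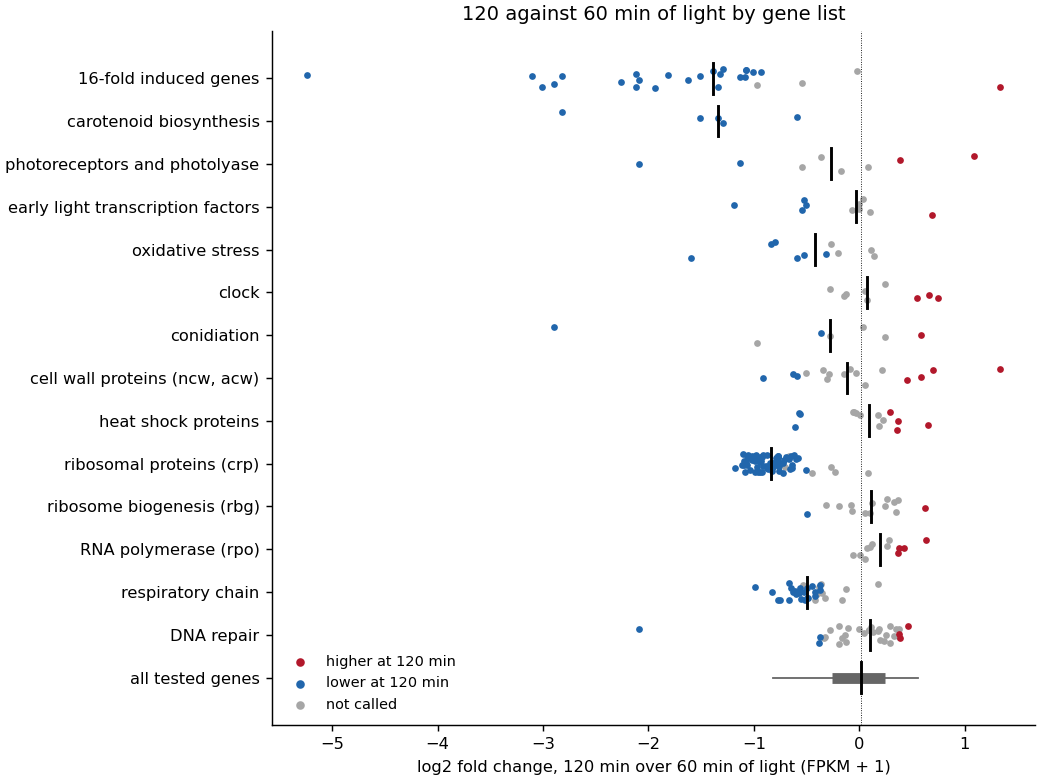
Log2 fold change of 120 min over 60 min of light (x axis) for the genes of 14 lists (rows), one point per gene, red for genes called higher, blue for genes called lower, and gray for genes not called, with the list median as a black bar. The bottom row gives all tested genes, with their median, quartiles (thick line), and the 5th to 95th percentile (thin line), and the medians of the 16-fold, carotenoid, and ribosomal protein lists lie at -1.38, -1.34, and -0.84.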

How the data were processed

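RNA-seq of *N. crassa* mycelium was deposited as 1 table per sample, 10 in all. The authors mapped reads with TopHat2 2.0.5 to assembly 10 and deposited FPKM from Cuffdiff (annotation 10.6), with correction for fragment bias and for reads that map to several places, per replicate. The mapping was not repeated, and FPKM keep no read numbers, so precision is given by the spread between samples that the fit leaves after the replicate block. Groups and replicate numbers were taken from the sample titles. Of the 9728 genes, 9218 matched the RefSeq table of assembly NC12, used for names and neighbors.

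Genes with mean FPKM above 1 at 1 or more time points entered limma 3.58.1 (R 4.3.3), fitted to log2(FPKM + 1) in 8 samples (dark, 15, 60, and 120 min). The model had 1 mean per time point and the replicate number as a block, with 3 residual degrees of freedom, a variance trend, and adjustment by Benjamini and Hochberg over the 7688 genes. The number marks the RNA isolation method, and deviations of same-numbered samples correlated across genes at 0.760 to 0.841, so the samples were taken as paired. The 240 min samples were left out of the spread, because the paper reports more divergence between their replicates than at the other time points.

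Genes named are the 10 largest rises and 10 largest falls among called genes whose replicates share a sign and whose mean FPKM is above 10, members of lists by locus, and the 3 called members with the smallest p of lists by symbol. Symbols came from RefSeq and from parts of the supplementary tables that are ordered by dark FPKM or by locus, so lists by symbol are not complete. Members and lists were chosen with earlier results of these data known. Alternatives were no block, other sets of samples, pseudocounts, filters, and scalings, and leaving out each sample. Other steps used Python 3.11.15.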

Additional observations from a re-analysis of the deposited data

How the results depend on the processing

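The 2400 calls (1123 higher, 1277 lower) became 14 (1 and 13) with no replicate block and 0 (0 and 0) with all 10 samples and the replicate block; beside this 0, 913 genes had an unadjusted p of 0.05 or less in limma. An adjusted p of 0.2 gave 4130 (2104 and 2026). With only the 4 samples at 60 and 120 min 691 genes were higher, and with quantile normalization 836 were lower. Per-million rescaling, which gives all samples a common sum and was chosen after the data were seen, gave 3885 (3482 and 403). Leaving out each sample in turn gave 649 to 2452 calls, 201 to 1077 higher and 448 to 1375 lower. The 137 genes changed 2-fold in both replicates (19 higher, 118 lower) became 218 (42 higher) with a pseudocount of 0.1, 80 (57 lower) with quantile normalization, and 222 (187 higher, 35 lower) with per-million rescaling, and median scaling left 12 higher. With 1 replicate alone they were 274 to 283, of which 37 to 60 higher and 214 to 246 lower. The correlation between replicates was 0.596 with a pseudocount of 0.1. Genes raised at 15 min and lower at 120 min numbered 142 of 229, against 8 of 123 with no replicate block, 0 of 99 with all 10 samples, and 73 of 195 with per-million rescaling, and 89 of 229 to 176 of 305 when 1 sample was left out. The median share of excess left, 34.7%, was 48.2% with per-million rescaling and 34.1% to 35.4% with 1 replicate. *con-8* turned to 0.0557 on the log2 scale with quantile normalization, and with per-million rescaling it turned to 0.0867, *cat-2* to 0.12, and the DNA repair gene *mus-8* to 0.0774. Of 120 named genes with a call, 85 kept it when each sample was left out, 11 kept it with no replicate block, and 0 with all 10 samples. The cause of these shifts was not tested. FPKM give no read number per gene, and the read yield that the paper reports for each sample was not used. What counting error adds for genes of low FPKM was therefore not estimated.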

Other observations

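Further gene groups were taken up after their values were seen and are given as a description only, by the same fit. Of 57 genes with a mitochondrial ribosomal protein symbol (*mrp*) 50 were lower at 120 than at 60 min and 0 higher, with a median log2 fold change of -0.62. All 10 genes annotated as ATP synthase subunits were lower (median -0.92), among them *atp-5*, with 245 and 273 FPKM at 120 min and 492 and 529 at 60 min (-0.98 ± 0.08). These 10 genes summed to 4341 and 6723 FPKM in the dark, 6519 and 9369 at 60 min, and 3406 and 4924 at 120 min. Of 16 genes with a *tca* symbol 14 were lower (median -0.66). The strongest of these was *tca-17*, annotated as an L-lactate dehydrogenase, with 9.94 and 10.7 FPKM at 120 min and 32.2 and 32.4 at 60 min (-1.56 ± 0.08), and *tca-15*, a malate dehydrogenase gene, had 187 and 259 FPKM at 120 min and 435 and 532 at 60 min. Of 9 histone genes 7 were lower (median -0.75). With FPKM rescaled to a common sum 9 *mrp* genes were lower (median -0.18), 8 ATP synthase genes (-0.47), 6 *tca* genes with 1 higher (-0.21), and 4 histone genes (-0.32), beside a median of 0.39 over all genes. With quantile normalization these counts were 33, 7, 7, and 4. The part in these falls of the relation to high FPKM, described above for the *crp* genes, was not tested.

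Of 5 chitin and glucan synthase genes 4 were higher (median 0.61; 2 without replicate 1 at 60 or at 120 min), among them *chs-7*, with 137 and 68.4 FPKM at 120 min and 69.6 and 41.9 at 60 min (0.83 ± 0.10), and *gh13-10*, with 42.03 and 17.8 FPKM at 120 min and 23.2 and 10.52 at 60 min. Of 42 serine/threonine kinase (*stk*) genes tested 14 were higher and 2 lower (median 0.25), and with a common sum 34 and 0 (median 0.61). Of 28 proteasome genes 1 was higher and 1 lower (median -0.03), but with a common sum 21 were higher and 0 lower (median 0.42). By limma 0 of 4 *emp* glycolysis genes were called (median 0.02, -0.05 with median scaling), but with a common sum all 4 were higher. Without replicate 2 at 120 min the higher *stk* genes numbered 2, the lower *mrp* genes 28 (27 without replicate 1 at 120 min), the lower *tca* genes 9, and the lower histone genes 4.

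Some genes that changed 2-fold in both replicates lay next to each other in the RefSeq order, 6 pairs of falls and 1 pair of rises. The rise was NCU00829 with *trm-44*. The falls included *al-2* with NCU00584 (-1.34 and -1.28), *bli-3* with *dph-5* (-2.12 and -1.46), and the pyrimidine salvage genes *uc-3* and *uc-6* (-2.01 and -1.26). Whether more pairs were seen than the gene order alone would give was not tested.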
